A study of Sus scrofa with 45 samples.

Results

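Isolated white blood cells and unfractionated whole blood were compared in miniature pigs on the control diet after 27 weeks of feeding, to show which transcripts were higher or lower once the leukocytes were separated from the rest of the blood. The members were chosen by their titles, as the 4 white blood cell arrays and the 4 whole blood arrays of the control group at 27 weeks, which are 8 of the 45 arrays of the series. The animals were male Clawn miniature pigs that were 12 weeks old when feeding began. The control group of the study held fewer pigs than these 8 arrays, so the sample types share animals. The titles number the males in both sample types, but do not say whether equal numbers mark the same animal. The main tests took the 8 arrays as independent. RNA from whole blood was prepared with a PAXgene kit and RNA from white blood cells with a LeukoLock kit. Each array was a porcine Agilent array read in 1 colour, and each value below is the log2 processed signal of a probe after quantile normalization.

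Whole blood holds red cells, platelets and leukocytes in plasma. Mature red cells and platelets have no nucleus but carry RNA left from their precursors, and young red cells (reticulocytes) carry the most, much of it for globins. Leukocytes comprise neutrophils, monocytes, lymphocytes and the rarer eosinophils and basophils, and they carry out innate and adaptive immune defence.

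All 4 whole blood arrays were scanned on 1 day and all 4 white blood cell arrays on another, on different slides, and the RNA kits differed as well. Sample type, kit, slide and scan day therefore cannot be told apart in any difference below. Whole blood replicates 1 to 4 had 50.2%, 49.4%, 46.5% and 38.9% of their spots well above background by the mark of the scanner software, with a mean (SD) of 46.2% (5.14). White blood cell replicates 1 to 4 had 48.0%, 50.9%, 47.6% and 43.9%, with a mean (SD) of 47.6% (2.86). A probe is called measured on an array below where it carries this mark. The groups overlapped, and the difference of 1.37 points had a two-sided exact permutation p of 0.714, but without whole blood replicate 4 it was -1.08 (exact p = 0.629). Before normalization the 75th percentile of the signal was 121, 104, 95.3 and 44.7 in whole blood and 225, 243, 254 and 139 in white blood cells.

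A pair of arrays stood apart from their groups. Whole blood replicate 4 had the lowest share of spots above background, and its mean correlation was 0.943 with its own group. White blood cell replicate 1 had a mean correlation of 0.939 with its own group, and 321 probes were low on it alone, by over 2 on the log2 scale below the nearest other array of its group, against at most 73 probes at either end of any other array. By Dixon's test without this gap, 504 probes were low on it and 196 high, against 440 and 246 on white blood cell replicate 4, 412 and 382 on whole blood replicate 4, and at most 148 at either end of the others. Of the 321 probes, 59 carried a gene symbol, and among them were PPBP, PF4, ITGA2B, ITGB3, SELP, VWF and CLU of the platelet list. With all 4 arrays the 321 probes gave 17 calls of higher and 2 of lower signal in white blood cells, with a median difference of 0.60. Without white blood cell replicate 1 they gave 274 higher and 2 lower, with a median of 1.68. The mean correlation within the sample types was higher than that between them by 0.0778 (exact permutation p = 0.0286, the smallest that 4 against 4 arrays can give). Called values of named genes that either array moved by over 1.5 times are given with and without it.

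Of 19020 probes tested with limma, 7557 differed between white blood cells and whole blood after Benjamini-Hochberg adjustment at 0.05 (39.7%). In white blood cells 3964 of them were higher (20.8%) and 3593 lower (18.9%). With scaling to the 75th percentile 4886 were higher and 3466 lower. Without whole blood replicate 4 these counts were 3524 and 3909, and without a filter 3670 and 3755. The median difference over all probes tested was 0.17, with quartiles of -0.56 and 0.74. On 7436 probes (39.1%) every array of one sample type lay beyond every array of the other, 3858 higher (20.3%) and 3578 lower (18.8%) in white blood cells. The number of arrays limits the precision of each value. Without white blood cell replicate 1, 8078 of 19384 probes tested were called (41.7%), and 6788 of the 7557 were among them in the same direction. Without whole blood replicate 4, 7433 of 20135 were called (36.9%), 6673 of them shared in direction, and without both arrays 8551 of 20425 (41.9%), 6539 of them shared.

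Large falls were more frequent than large rises. Among the called probes 580 were lower by over 3 on the log2 scale and 83 were higher by over 3. Beyond 5 the counts were 157 and 4. Without whole blood replicate 4 they were 468 and 48 beyond 3 and 99 and 3 beyond 5, and without white blood cell replicate 1 they were 581 and 138, and 148 and 3. Of the probes called lower, 439 were measured on 0 white blood cell arrays, and of those called higher, 178 on 0 whole blood arrays. Whole blood replicate 4 was the highest whole blood array on 550 of the 580 large falls and the lowest on 60 of the 83 large rises.

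Probes with a gene symbol leaned upward. Of 2431 such probes tested, 921 were called (37.9%), 698 higher (28.7%) and 223 lower (9.17%). They represent 1702 genes, of which 1191 had a mean difference above 0, and the median over these genes was 0.41. Differences of gene groups are therefore read against 0.17 for all probes and 0.41 for all named genes, and the share of their probes called against 37.9%. Of 31 gene lists, 27 had a median above 0, 24 a median above that of all probes and 18 a median above that of all named genes.

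The leukocyte label was checked on its defining marker. PTPRC (CD45), the phosphatase found on all leukocytes, read 10.58, 10.81, 10.56 and 10.21 in whole blood and 10.56, 10.22, 10.31 and 9.45 in white blood cells at 1 of its probes. The groups overlapped, with a difference of -0.40 (adjusted p = 0.266), and its other probes had -0.37 (adjusted p = 0.243) and 0.31 (adjusted p = 0.512). In bulk samples, fewer cells of a type and less RNA per cell cannot be told apart. PTPRC therefore does not measure how far leukocytes were enriched.

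The red cell Rh antigen gene RHCE, which encodes a membrane protein of red cells, read 9.58, 10.12, 9.25 and 11.99 in whole blood and 4.02, 4.93, 5.58 and 6.29 in white blood cells. The groups did not overlap, and RHCE fell by 5.03 on the log2 scale (adjusted p = 3.71e-04). AQP1, the water channel of the red cell membrane, read 13.65, 14.39, 14.07 and 14.88 in whole blood and 7.69, 8.24, 9.20 and 9.92 in white blood cells, and fell by 5.48 (adjusted p = 9.99e-05). Its other probe fell by 3.47 (adjusted p = 6.36e-04) and was measured on 1 of 4 white blood cell arrays. KLF1, the transcription factor that turns on adult globin genes, fell by 1.33 (adjusted p = 0.0161). These calls were kept without white blood cell replicate 1 and without whole blood replicate 4.

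Other genes of the red cell lists were low on white blood cell replicate 1 alone. HBE1, the embryonic beta-like globin gene, read 12.29, 12.80, 12.88 and 13.98 in whole blood and 7.22, 12.33, 13.16 and 12.96 in white blood cells. The difference was -1.57 (adjusted p = 0.304), and at its other probe it was -1.20 (adjusted p = 0.458). Without white blood cell replicate 1 these differences were -0.17 and 0.30 (adjusted p = 0.549 for the latter). Whether these probes also bind transcripts of the adult globins was not tested, since HBB, HBA1 and HBA2 have no probe with their symbol and the probe named HBA was not well above background on any array.

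ACKR1, the chemokine-binding Duffy antigen, read 5.16, 5.06, 5.02 and 4.89 in whole blood and 3.26, 6.67, 7.15 and 7.39 in white blood cells, where it was measured on 3 of 4 arrays. BPGM, which makes the phosphate that loosens oxygen from haemoglobin, read 4.96, 5.11, 6.26 and 5.23 against 4.06, 7.36, 7.76 and 7.44. Their differences of 1.09 (adjusted p = 0.290) and 1.27 (adjusted p = 0.198) were not called, but without white blood cell replicate 1 they were 2.04 (adjusted p = 4.70e-04) and 2.13 (adjusted p = 0.00132).

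The red cell lists were thinly measured. Of 22 genes of haemoglobin and haem synthesis 3 were tested, of which 1 was lower and 2 not called, with a median of -1.38, or 0.06 without white blood cell replicate 1, and 40% of their probes called. Their summed signal on the linear scale was 15176, 23851, 25089 and 50635 in whole blood and 952, 19216, 29154 and 29123 in white blood cells, of which HBE1 held 89.1%. Of 21 genes of the red cell membrane and skeleton 3 were tested, with 1 lower and 2 not called (50% of probes called), and the median was 0.66, above 0 although AQP1 fell. Their summed signal was 13228, 21987, 17547 and 30613 in whole blood and 625, 921, 994 and 1972 in white blood cells, 95.8% of it from AQP1. The band 3, spectrin and glycophorin genes have no named probe.

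Erythroid regulators and genes of reticulocyte maturation gave 1 lower and 3 not called of 4 tested among 28 (25% of probes called). Their median was -0.40, and for the same genes -0.37 without white blood cell replicate 1 and -0.21 without whole blood replicate 4. A further gene enters the test without either array, and with it the medians were 0.31 and 0.21. Their sum was 2688, 2342, 2735 and 7139 in whole blood and 1769, 2395, 1877 and 1441 in white blood cells, 89.7% of it from CAT. CAT, the catalase that breaks down hydrogen peroxide, read 11.27, 11.03, 11.28 and 12.73 against 10.66, 11.03, 10.59 and 9.96, and its difference of -1.02 was not called (adjusted p = 0.0634), nor was that of -0.63 without whole blood replicate 4 (adjusted p = 0.103). TFRC, ZFPM1 and BCL2L1 of this list were not well above background on any array.

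**Figure D1:**
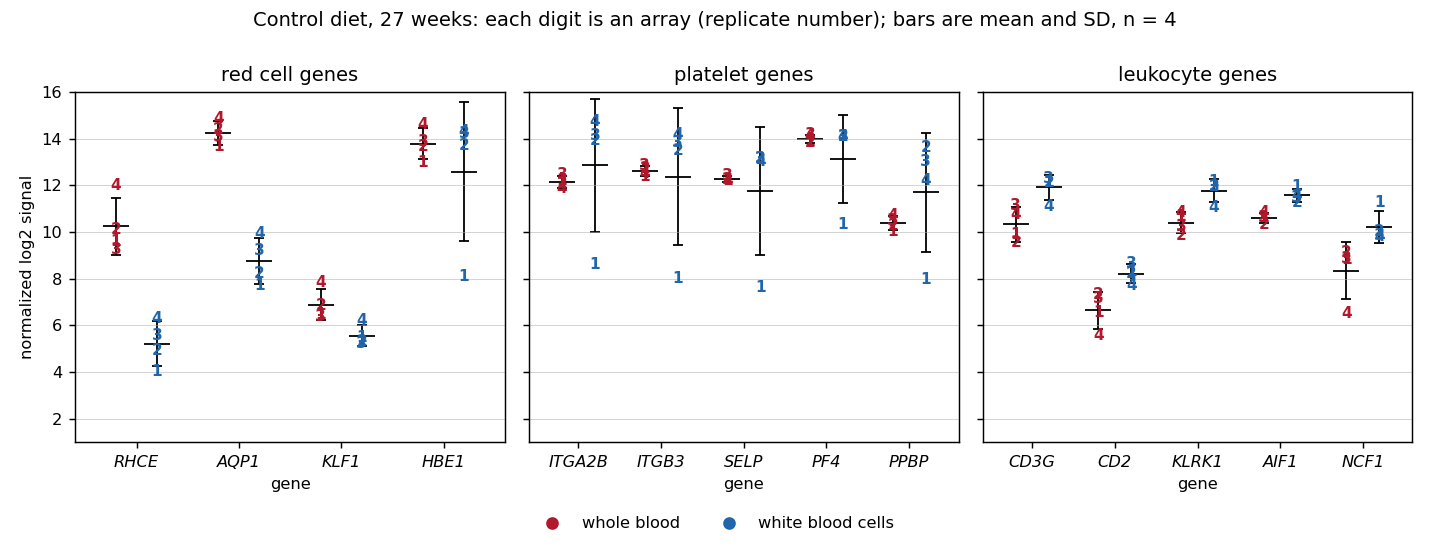
Log2 processed signal (vertical axis) of red cell, platelet and leukocyte genes on each of the 8 arrays, drawn as its replicate number, with bars for the mean and SD of 4 arrays. RHCE, KLF1 and AQP1 are lower on all 4 white blood cell arrays, whereas HBE1, ITGA2B, ITGB3, SELP, PF4 and PPBP are low on white blood cell replicate 1 alone.

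Several platelet genes were low on white blood cell replicate 1 alone. ITGA2B, a subunit of the platelet fibrinogen receptor, read 12.21, 12.07, 12.48 and 11.86 in whole blood and 8.62, 13.92, 14.14 and 14.74 in white blood cells. ITGB3, the other subunit, read 12.37, 12.73, 12.84 and 12.51 in whole blood and 8.0, 13.47, 13.83 and 14.17 in white blood cells. SELP, the adhesion receptor of platelet granules, read 12.20, 12.26, 12.44 and 12.19 in whole blood and 7.62, 13.13, 13.16 and 13.04 in white blood cells. For each of these genes white blood cell replicate 1 lay below all whole blood arrays and the other 3 lay above all of them. With all 4 arrays the differences of 0.70 (adjusted p = 0.646), -0.25 (adjusted p = 0.883) and -0.53 (adjusted p = 0.722) were not called.

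The same array was low for further platelet genes. PF4, a chemokine of platelet granules, read 13.86, 13.83, 14.16 and 14.13 in whole blood and 10.30, 14.09, 14.07 and 14.07 in white blood cells, with a difference of -0.86 (adjusted p = 0.395). Without white blood cell replicate 1, ITGA2B was higher by 2.11 (adjusted p = 6.16e-04), ITGB3 by 1.21 (adjusted p = 0.00496) and SELP by 0.84 (adjusted p = 0.0105), whereas PF4 differed by 0.09 (adjusted p = 0.767). PPBP, another granule chemokine, differed by 0.32 (adjusted p = 0.831) and 1.33 (adjusted p = 0.323) at its probes, and without that array by 1.62 (adjusted p = 0.00321) and 2.58 (adjusted p = 6.81e-04). VWF, which tethers platelets to the vessel wall, differed by 2.06 (adjusted p = 0.196) and CLU, a secreted chaperone of platelet granules, by 2.29 (adjusted p = 0.153), or by 3.51 (adjusted p = 4.49e-04) and 3.71 (adjusted p = 6.03e-04) without it. White blood cell replicate 1 was the lowest array for these genes too.

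Other platelet genes moved in opposite directions on all white blood cell arrays. THBS1, the adhesive glycoprotein thrombospondin, read 9.82, 9.47, 9.66 and 11.68 in whole blood and 5.54, 5.57, 5.53 and 6.86 in white blood cells, and fell by 4.28 (adjusted p = 2.86e-04). P2RY12, the platelet ADP receptor, measured on 3 of 4 whole blood arrays, read 4.00, 3.26, 4.72 and 3.89 against 6.38, 6.10, 5.73 and 5.32, and rose by 1.92 (adjusted p = 0.00225). Of 24 platelet genes 10 were tested, of which 1 was higher, 1 lower and 8 not called (18.2% of probes called), with a median of 0.48, or 1.48 without white blood cell replicate 1. The summed signal was 34362, 35544, 43761 and 39998 in whole blood and 3316, 85512, 87248 and 99955 in white blood cells, and PF4 held the most of it (27.6%). The part of platelet RNA in other differences was not tested.

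Arrays with a low platelet signal also occurred among the other white blood cell samples of 27 weeks. The mean of the 11 platelet probes was 7.68, 11.49, 11.44 and 11.59 in the control white blood cells. It was 10.57, 6.63, 9.97 and 11.17 in the white blood cells of the group fed more fat and cholesterol (HFCD), so replicate 2 was low. In the group whose diet held sucrose as well (HFCSD) it was 11.08, 10.82, 9.33 and 8.88. In the 10 whole blood arrays of 27 weeks it lay between 8.22 and 10.58. At 1 probe HBE1 read 8.11 on control white blood cell replicate 1 and 8.06 on HFCD white blood cell replicate 2. On the other white blood cell arrays it lay between 11.10 and 14.30. RHCE read 4.02 and 6.29 on those arrays and between 4.93 and 9.77 on the other white blood cell arrays. Why HBE1 was low there was not tested.

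**Figure D2:**
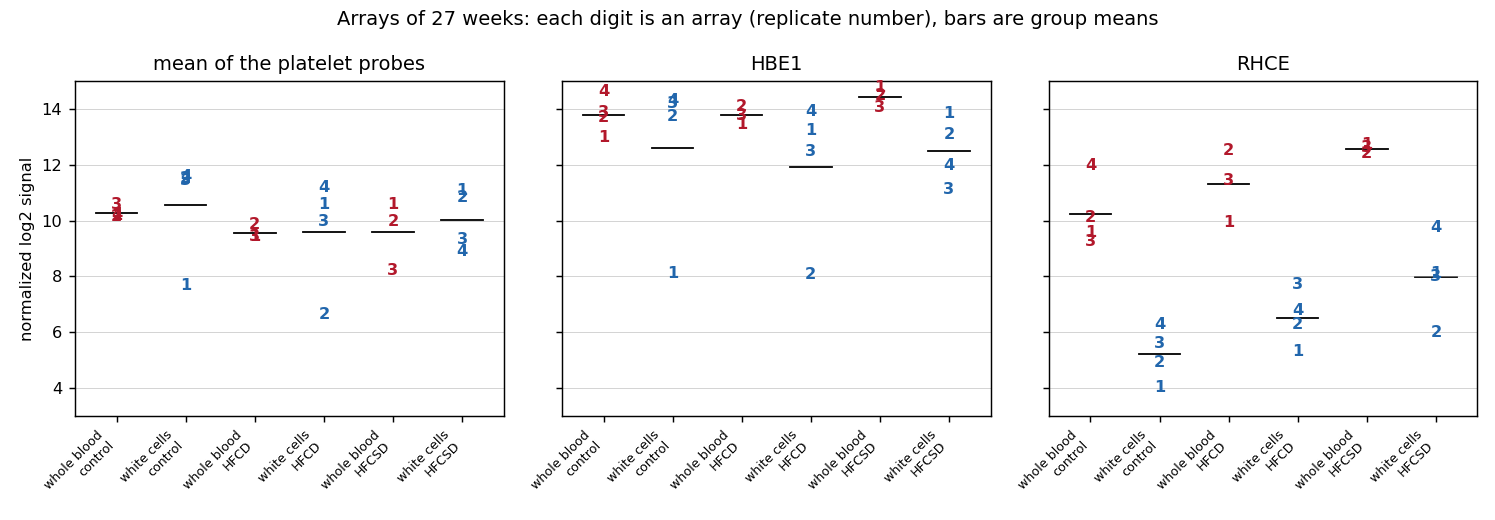
Mean log2 signal of the platelet probes, and the log2 signals of HBE1 and RHCE, on the arrays of 27 weeks by diet and sample type, each array drawn as its replicate number with bars for group means. Control white blood cell replicate 1 (7.68) and HFCD white blood cell replicate 2 (6.63) have the lowest platelet means.

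By the named probe of each gene, the 15 largest falls without overlap between the groups ranged from -6.53 to -4.38. AQP1 and RHCE were among them. So were SLC2A11, ACR and CCR4, which were measured on 0 white blood cell arrays, so their places in this order rest on values near background. SPEF2, a protein of the sperm tail, read 11.18, 10.55, 10.53 and 12.98 in whole blood and 4.60, 3.94, 3.90 and 6.67 in white blood cells, and fell by 6.53 (adjusted p = 2.10e-04). CLPS, the colipase that assists pancreatic lipase, read 10.19, 9.74, 10.40 and 12.40 against 4.40, 3.80, 3.63 and 5.6, and fell by 6.32 (adjusted p = 1.34e-04). SPINK4, a protease inhibitor of the gut, read 12.88, 13.48, 13.58 and 14.80 against 6.96, 6.96, 8.18 and 8.76, and fell by 5.97 (adjusted p = 9.98e-05).

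PTGDS, a synthase of prostaglandin D, fell by 5.91 (adjusted p = 1.26e-04), CAV3, the caveolin of muscle, by 5.67 (adjusted p = 1.58e-04) and MADCAM1, an adhesion molecule of gut vessels, by 5.65 (adjusted p = 2.43e-04). SLC2A11, a sugar transporter, read 7.55, 7.35, 7.30 and 9.83 in whole blood and was measured on 0 white blood cell arrays, so it was at least 26.1-fold lower (adjusted p = 9.99e-05). ACR, a protease of the sperm head, was likewise at least 23.8-fold lower (adjusted p = 9.79e-05), and CCR4, a chemokine receptor of T cells, at least 45.9-fold lower (adjusted p = 1.34e-04). CCR4 read 8.21, 8.16, 8.30 and 10.67 in whole blood and 3.18, 2.43, 3.31 and 3.59 in white blood cells. ATRN (attractin) fell by 5.15 and UPK2, a protein of the bladder lining, by 4.79, both measured on 2 of 4 white blood cell arrays. COL4A2, a collagen of basement membranes, fell by 4.44 and was measured on 1 of them, and ITIH2, a plasma protease inhibitor subunit made in the liver, fell by 4.38. The adjusted p of these last 4 genes lay between 2.37e-04 and 6.81e-04.

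Whole blood replicate 4 was the highest whole blood array for all 15 of these genes, and white blood cell replicate 4 the highest of its group for 13. Without whole blood replicate 4 the bounds were 17.2-fold for SLC2A11 and 30.1-fold for CCR4, and the difference of ITIH2 went from -4.38 to -3.75. Without white blood cell replicate 4 that of SPEF2 went from -6.53 to -7.17 and that of MADCAM1 from -5.65 to -6.24. All 15 kept their call without either of the arrays that stood apart. Within whole blood these genes thus shared their highest array.

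By the same choice of probes, the 15 largest rises ranged from 2.93 to 5.92. They included chemokines, signalling proteins of lymphocytes and a peptide transporter. FFAR2, SAA3, NELFCD, FASLG and RENBP among them were measured on 0 whole blood arrays. For these genes only a bound of the fold is given, and their places in this order rest on values near background. CXCL2, a chemokine that draws neutrophils, read 3.72, 3.17, 2.96 and 1.67 in whole blood, where it was measured on 2 of 4 arrays, and 10.69, 8.55, 10.16 and 5.78 in white blood cells. It rose by 5.92 (adjusted p = 0.00124), and at its other probe it was at least 8.0-fold higher (adjusted p = 5.37e-04). CXCL8, a related chemokine, read 5.06, 3.98, 4.60 and 3.40 against 11.85, 8.81, 8.32 and 6.01, and rose by 4.49 (adjusted p = 0.00651) at this probe and by 6.02 (adjusted p = 0.00255) at another, measured on 3 and 2 of 4 whole blood arrays. White blood cell replicate 1 was the highest and replicate 4 the lowest of their group for both genes. Without replicate 1 the rises were 5.28 for CXCL2 and 3.45 and 5.02 for the probes of CXCL8. Without replicate 4 the bound at the other probe of CXCL2 was 14-fold, and the rises were 6.92 for CXCL2 and 5.40 and 6.95 for CXCL8, and without whole blood replicate 4 the latter was 5.33.

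RGS1, which dampens G protein signals in lymphocytes, read 4.52, 4.90, 5.11 and 4.69 in whole blood and 10.30, 9.79, 9.84 and 8.12 in white blood cells, and rose by 4.71 (adjusted p = 1.16e-04). STK17A, a protein kinase of the death-associated family, rose by 4.19 (adjusted p = 7.47e-04), or 3.53 without whole blood replicate 4. FFAR2, a receptor for short-chain fatty acids on leukocytes, read 1.47, 1.68, 1.93 and 1.43 against 5.58, 5.13, 4.79 and 4.89 and was at least 3.06-fold higher (adjusted p = 7.89e-05). FASLG, the death ligand of cytotoxic lymphocytes, was at least 3.25-fold higher (adjusted p = 9.98e-05) and SAA3, an acute phase protein, at least 3.47-fold higher (adjusted p = 4.44e-04). All of these but RGS1 and STK17A were measured on 0 whole blood arrays, and STK17A on 3 of 4.

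NELFCD, a subunit of a complex that pauses RNA polymerase, was at least 5.48-fold higher (adjusted p = 1.15e-04) and RENBP, the renin-binding protein, at least 4.07-fold higher (adjusted p = 4.19e-04). STAT5A, which carries cytokine signals to the nucleus, read 3.98, 4.89, 4.60 and 2.48 in whole blood and 6.86, 6.93, 6.98 and 7.08 in white blood cells, and rose by 2.97 (adjusted p = 0.0010). NFATC1, a calcium-dependent transcription factor of lymphocytes, rose by 3.04 (adjusted p = 0.00169), SIRT7, a nuclear deacylase, by 2.94 (adjusted p = 0.00109) and SLC12A4, a potassium and chloride cotransporter, by 2.93 (adjusted p = 0.00153). STAT5A, NFATC1 and SLC12A4 were measured on 3 of 4 whole blood arrays. ITPK1, a kinase of inositol phosphates, rose by 3.21 (adjusted p = 2.81e-04) and was measured on 1 of 4 whole blood arrays. Whole blood replicate 4 was the lowest whole blood array for 13 of the 15 rises.

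**Figure D3:**
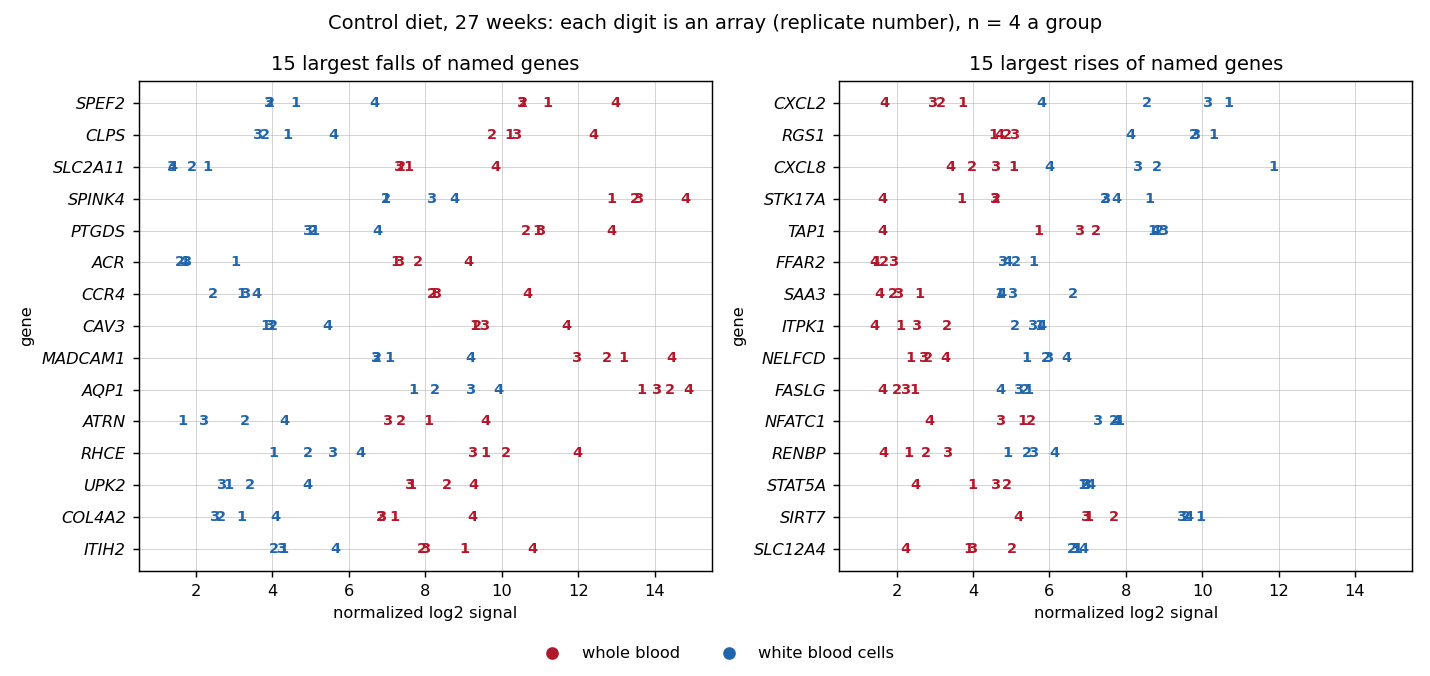
Log2 signal (horizontal axis) on each array for the genes with the largest falls and rises between white blood cells and whole blood, with whole blood and white blood cell arrays in different colours. The sample types do not overlap for any gene drawn, and whole blood replicate 4 is the highest whole blood array for all 15 falls.

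Of 20 monocyte genes 12 were tested, 7 were higher, 5 not called and 0 lower, with a median of 1.03, and 40.7% of their probes were called, against 37.9% of all probes with a symbol. AIF1, an actin-binding protein of monocytes and macrophages, read 8.62, 7.53, 7.99 and 8.27 in whole blood and 11.66, 11.19, 11.23 and 10.92 in white blood cells, and rose by 3.15 (adjusted p = 1.05e-04) at this probe and by 0.98 (adjusted p = 0.00713) at another. FCGR1A, a high-affinity antibody receptor, rose by 2.86 (adjusted p = 0.00564) and was measured on 1 of 4 whole blood arrays. CD163, the scavenger receptor for haemoglobin, rose by 2.02 (adjusted p = 0.00389) and 1.61 (adjusted p = 0.00485) at probes measured on 3 and 1 of 4 whole blood arrays. At its other 4 probes, measured on all 8 arrays, it differed by 0.86 (adjusted p = 0.107), 0.95 (adjusted p = 0.0778), 0.80 (adjusted p = 0.131) and -0.17 (adjusted p = 0.795). TLR4, the receptor for bacterial lipopolysaccharide, rose by 1.64 (adjusted p = 0.0112) and 1.35 (adjusted p = 0.00988) at 2 probes and differed by 0.93 (adjusted p = 0.0756) and 0.16 (adjusted p = 0.712) at 2 others. CD14, which presents lipopolysaccharide to TLR4, read 6.16, 6.26, 6.57 and 1.47 against 8.20, 7.24, 7.72 and 7.74, a difference of 2.61 that was not called (adjusted p = 0.0593), or 1.40 (adjusted p = 0.00430) without whole blood replicate 4, where it was not measured, and its other probe differed by 0.64 (adjusted p = 0.288), or 0.15 without that array. LYZ, the lysozyme that held 52.7% of the summed signal of the list, differed by 1.08 (adjusted p = 0.117), or 0.56 (adjusted p = 0.210) without white blood cell replicate 1.

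Of 30 neutrophil genes 10 were tested, with 2 higher, 2 lower and 6 not called, a median of 0.33 and 30.8% of their probes called. PGLYRP1, a granule protein that binds bacterial cell walls, read 9.0, 8.02, 8.25 and 10.89 in whole blood and 5.84, 4.98, 5.87 and 6.33 in white blood cells, and fell by 3.28 (adjusted p = 0.00216), with -2.67 without whole blood replicate 4. ARG1, an arginase of neutrophil granules, read 13.02, 12.72, 12.63 and 15.14 against 7.97, 11.26, 11.02 and 11.18 and fell by 3.02 (adjusted p = 0.0145), with -2.43 without whole blood replicate 4 and -2.22 without white blood cell replicate 1. Its other probe differed by -2.22 (adjusted p = 0.140), with -1.42 without whole blood replicate 4, -1.08 without white blood cell replicate 1 and -0.28 without both. NCF1, a subunit of the oxidase that kills microbes, rose by 1.89 (adjusted p = 0.0269), with 1.28 without whole blood replicate 4, and lost the call without white blood cell replicate 1 (adjusted p = 0.0557) or 2 (adjusted p = 0.0523). TREM1, a receptor that amplifies inflammation, rose by 1.66 (adjusted p = 0.0237) and lost the call without white blood cell replicate 3 (adjusted p = 0.0568). FCGR3A, an antibody receptor with 34.3% of the summed signal, differed by 0.48 (adjusted p = 0.127).

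Of 26 T cell genes 9 were tested, 5 were higher and 4 not called, with a median of 0.84 and 40% of their probes called. CD3G, a chain of the T cell receptor complex, read 9.90, 9.54, 11.13 and 10.77 in whole blood and 12.13, 12.12, 12.30 and 11.11 in white blood cells. Only white blood cell replicate 4 overlapped with whole blood, and CD3G rose by 1.58 (adjusted p = 0.0118), with 0.88 (adjusted p = 0.0607) at its other probe. CD4, the coreceptor of helper T cells, rose by 1.41 (adjusted p = 0.00430) and was measured on 3 of 4 whole blood arrays. CD8A, the coreceptor of cytotoxic T cells, differed by 0.70 (adjusted p = 0.0758) and 0.33 (adjusted p = 0.826) at its probes, the latter with white blood cell replicate 1 at 4.58 and the others between 9.64 and 10.36, and without that array the difference was 1.66 (adjusted p = 0.00279).

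The other chains of the complex depended on the probe and the arrays. CD3D rose by 1.90 (adjusted p = 0.00682), measured on 3 of 4 whole blood arrays, and by 0.86 (adjusted p = 0.0181) at 2 of its probes and differed by -0.13 (adjusted p = 0.633) at another. The rise of 0.86 lost the call without whole blood replicate 1 (adjusted p = 0.0510) or white blood cell replicate 3 (adjusted p = 0.0533). CD3E rose by 1.06 (adjusted p = 0.0444), and lost the call without whole blood replicate 1, 2 or 4 (adjusted p = 0.0976, 0.0619 and 0.0808) and without white blood cell replicate 1, 2, 3 or 4 (adjusted p = 0.0524, 0.0646, 0.115 and 0.0823).

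B cell genes had 3 of 19 tested, with 1 higher and 2 not called (33.3% of probes called) and a median of 0.59. BLNK, an adaptor of the B cell receptor, rose by 0.93 (adjusted p = 0.0101). Of 20 genes of NK and cytotoxic cells 5 were tested, with 3 higher and 2 not called (60.0% of probes called), and a median of 1.37. PRF1, the pore-forming perforin, read 4.30, 4.56, 4.07 and 3.57 in whole blood and 6.67, 6.26, 6.14 and 6.45 in white blood cells, and rose by 2.26 (adjusted p = 2.42e-04), measured on 3 of 4 whole blood arrays. KLRK1, an activating receptor of NK cells, rose by 1.37 (adjusted p = 0.00760), whereas GNLY (granulysin), with 89.5% of the summed signal, differed by -0.48 (adjusted p = 0.281). Of 16 genes of eosinophils, basophils and mast cells 6 were tested, with 2 higher and 4 not called (28.6% of probes called), and a median of 0.70. MS4A2, a chain of the IgE receptor, rose by 1.30 (adjusted p = 0.00454).

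Genes of peptide loading onto MHC class I moved apart. TAP1 and TAP2 encode the chains of the transporter that brings peptides into the endoplasmic reticulum. TAP2 read 10.78, 10.40, 11.20 and 13.06 in whole blood and 7.21, 7.15, 6.91 and 7.94 in white blood cells, and fell by 4.06 (adjusted p = 4.07e-04). TAP1 read 5.70, 7.21, 6.81 and 1.62 against 8.69, 8.86, 8.99 and 8.76, and rose by 3.49 (adjusted p = 0.0222), with 3.37 (adjusted p = 0.00162) at its other probe, both measured on 3 of 4 whole blood arrays. Whole blood replicate 4 was low for TAP1, and without it the rises were 2.26 (adjusted p = 0.00149) and 2.74 (adjusted p = 3.18e-04). Without whole blood replicate 2 the former was 4.12, and it lost the call without white blood cell replicate 2 (adjusted p = 0.0504) or 3 (adjusted p = 0.0550).

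Of 18 genes of MHC class I and peptide loading 11 were tested, with 2 higher, 1 lower, 2 with probes called in both directions and 6 not called (51.9% of probes called), and the median was 0.08. SLA-1, a classical class I heavy chain of the pig, had 10 probes with its symbol, of which 6 were higher, 1 lower and 3 not called. Its differences ran from -1.15 (adjusted p = 0.00328) to 2.89 (adjusted p = 0.00229), the latter 2.28 without whole blood replicate 4. Class I heavy chains are alike in sequence and highly variable between animals. For MHC class II and dendritic cells 10 of 22 genes were tested, with 3 higher, 1 lower and 6 not called (20.8% of probes called), and a median of 0.27. CD1D, which presents lipids to T cells, rose by 3.07 (adjusted p = 6.64e-04) and 2.39 (adjusted p = 1.30e-04) at probes that were measured on 1 and 2 of 4 whole blood arrays, and differed by 0.51 (adjusted p = 0.0689) at a probe measured on all 8 arrays. XCR1, a chemokine receptor of dendritic cells, fell by 2.30 (adjusted p = 0.00547).

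Of 29 interferon-induced genes 17 were tested, with 2 higher, 0 lower and 15 not called, 9.38% of their probes called and a median of 0.70 that was 0.18 without white blood cell replicate 1. USP18, which removes the ubiquitin-like ISG15 from proteins, read 3.68, 3.57, 2.68 and 3.16 in whole blood, where it was measured on 2 of 4 arrays, and 7.01, 5.91, 6.13 and 5.22 in white blood cells, and rose by 2.79 (adjusted p = 5.32e-04) at this probe, whereas its other probe, measured on all 8 arrays, differed by 0.84 (adjusted p = 0.175). IRF9, the DNA-binding part of the interferon-induced factor, rose by 2.04 (adjusted p = 0.00179) and 1.34 (adjusted p = 0.00437) at 2 probes and differed by 0.43 (adjusted p = 0.130) at another.

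Immediate early and stress response genes had 10 of 32 tested, with 5 higher and 5 not called (38.9% of probes called), and a median of 0.96. KLF4, a transcription factor of monocytes, rose by 1.95 (adjusted p = 0.00248) at a probe measured on 3 of 4 whole blood arrays and by 0.99 (adjusted p = 0.0454) at another, a call that was lost without each array but whole blood replicate 4 (adjusted p between 0.0604 and 0.110). HMOX1, which breaks down haem, rose by 1.40 (adjusted p = 0.00934). BTG1, which slows cell division, rose by 2.19 (adjusted p = 0.00339) at 1 probe and differed by 0.38 (adjusted p = 0.337) and 0.33 (adjusted p = 0.407) at others. Of 29 cytokine and chemokine genes 18 were tested, with 6 higher, 1 lower and 11 not called (42.9% of probes called), and a median of 0.97. Besides CXCL2 and CXCL8, IL15, a growth factor of NK cells, rose by 2.10 (adjusted p = 9.0e-04) and CCL8, a chemokine for monocytes, by 2.69 (adjusted p = 0.00308), the latter measured on 2 of 4 whole blood arrays. LIF, a cytokine of the IL-6 family, was at least 2.11-fold lower (adjusted p = 0.0103) and was measured on 0 white blood cell arrays.

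Of 32 genes of the actin cytoskeleton and leukocyte adhesion 15 were tested, with 10 higher and 5 not called, and a median of 0.74, and 35.3% of their probes were called, against 37.9% of all probes with a symbol. MSN (moesin), which links actin to the membrane, rose by 2.25 (adjusted p = 0.00374) and 2.87 (adjusted p = 0.00484), the latter measured on 3 of 4 whole blood arrays and 2.19 without whole blood replicate 4, and differed by 1.02 (adjusted p = 0.124) at another probe. ACTB, a cytoplasmic actin, rose by 2.58 (adjusted p = 0.00625) at 1 probe and differed by 0.39 (adjusted p = 0.258), 0.26 (adjusted p = 0.472) and -0.12 (adjusted p = 0.725) at others. Of 24 genes of the lysosome and proteases 14 were tested, with 10 higher, 1 lower and 3 not called (52.2% of probes called), and a median of 0.81. LAMP1, a major protein of the lysosome membrane, read 6.66, 6.66, 6.79 and 5.80 in whole blood and 9.49, 8.99, 8.78 and 9.21 in white blood cells, and rose by 2.64 (adjusted p = 1.87e-04). The lysosomal proteases CTSB and CTSD rose by 2.86 (adjusted p = 0.00102) and 1.75 (adjusted p = 0.00656), whereas GUSB, a lysosomal glucuronidase, fell by 1.32 (adjusted p = 0.00314). The other probes of CTSB and GUSB differed by 0.43 (adjusted p = 0.179) and 0.13 (adjusted p = 0.645).

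Toll-like receptors and their signalling had 16 of 22 genes tested, with 3 higher and 13 not called (17.4% of probes called), and a median of 0.76. MYD88, the adaptor of most Toll-like receptors, rose by 3.11 (adjusted p = 4.38e-04) at a probe that was measured on 1 of 4 whole blood arrays and differed by -0.70 (adjusted p = 0.112) at its other probe.

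Of 79 cytosolic ribosomal protein genes 45 were tested, with 8 higher, 7 lower, 1 called in both directions and 29 not called (25.8% of probes called), and a median of 0.04. RPL5, of the large subunit, read 12.51, 13.24, 13.82 and 12.92 in whole blood and 15.22, 15.38, 15.19 and 14.31 in white blood cells, and rose by 1.91 (adjusted p = 0.00206). The respiratory chain and ATP synthase had 23 of 85 genes tested, with 4 higher and 19 not called (12.1% of probes called), and a median of 0.21. SDHA, a subunit of succinate dehydrogenase, read 4.60, 4.97, 4.64 and 4.95 against 6.58, 6.72, 6.71 and 6.77, and rose by 1.90 (adjusted p = 1.66e-04) at this probe, with 0.54 (adjusted p = 0.119) and 0.02 (adjusted p = 0.960) at others.

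The proteasome had 12 of 34 genes tested, with 3 higher, 1 lower and 8 not called (29.4% of probes called), and a median of 0.45, and PSMD4, its ubiquitin receptor, rose by 1.51 (adjusted p = 0.00527) at 1 of its probes and differed by 0.12 (adjusted p = 0.744) and -0.49 (adjusted p = 0.126) at others. Heat shock proteins and chaperones had 13 of 22 genes tested, with 5 higher and 8 not called (21.7% of probes called), and a median of 0.28, and DNAJB6, a cochaperone, rose by 1.31 (adjusted p = 0.00623). Glycolysis had 10 of 23 genes tested, with 2 higher and 8 not called (23.1% of probes called), and a median of 0.52. These were GPI, which isomerizes glucose phosphate and rose by 2.66 (adjusted p = 3.31e-04), measured on 3 of 4 whole blood arrays, and TPI1, which isomerizes triose phosphates and rose by 2.99 (adjusted p = 0.00329) and 1.98 (adjusted p = 0.0125).

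Antioxidant enzymes had 13 of 21 genes tested, with 4 higher, 1 called in both directions and 8 not called (32% of probes called), and a median of 0.44, and SOD2, the superoxide dismutase of mitochondria, rose by 1.49 (adjusted p = 0.0178) at 1 probe and differed by 0.69 (adjusted p = 0.263) and 0.58 (adjusted p = 0.282) at others. The cell cycle list had 5 of 24 genes tested, with 1 higher, 1 lower and 3 not called (25% of probes called), and a median of 0.21, or -0.07 without whole blood replicate 4. BIRC5 (survivin), which acts in cell division, read 10.66, 11.57, 11.81 and 12.27 in whole blood and 8.82, 9.10, 9.80 and 9.84 in white blood cells, and fell by 2.19 (adjusted p = 0.00179).

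**Figure D4:**
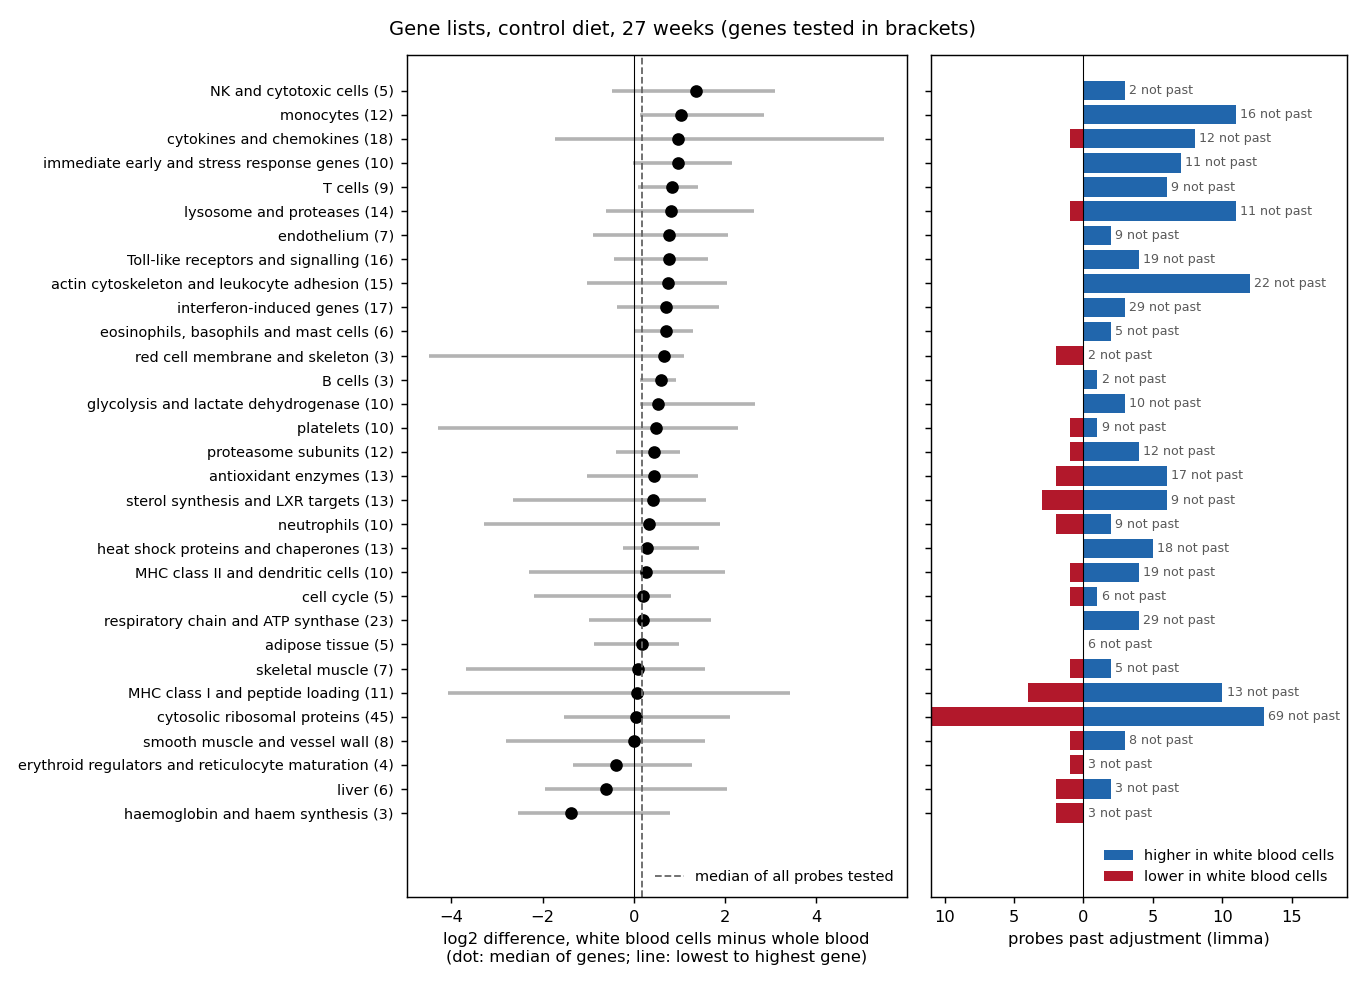
Log2 difference between white blood cells and whole blood in each of the 31 lists (dot, median of the tested genes; line, lowest to highest gene), beside the numbers of probes called higher and lower. The medians run from -1.38 for haemoglobin and haem synthesis to 1.37 for NK and cytotoxic cells, beside 0.17 for all probes tested.

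Cholesterol genes moved both ways. Of 26 genes of sterol synthesis and LXR targets 13 were tested, with 4 higher, 2 lower, 1 called in both directions and 6 not called (50% of probes called), and a median of 0.43. ABCA1, the cholesterol exporter, read 9.92, 10.41, 9.84 and 9.85 in whole blood and 9.76, 10.03, 10.25 and 10.23 in white blood cells, with overlap and a difference of 0.06 (adjusted p = 0.838). NR1H3, the sterol sensor LXR alpha, rose by 1.73 (adjusted p = 0.00171) and 1.45 (adjusted p = 0.00681), the latter measured on 3 of 4 whole blood arrays. INSIG1, which holds back sterol synthesis, rose by 1.75 (adjusted p = 0.00669) at 1 probe and fell by 2.45 (adjusted p = 0.00478) at another.

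Of 22 genes that the study lists among its leading diet genes, 20 had a named probe and 19 a tested one, and 7 of their 27 tested probes were called between the sample types (25.9%, against 37.9% of all probes with a symbol). The study chose them on these samples, so they are not independent of the data. Besides UPK2 and ROMO1, WNT10B, a secreted signal of development, rose by 1.02 (adjusted p = 0.0169), MAOA, which breaks down monoamines, by 1.48 (adjusted p = 0.00442) at a probe measured on 3 of 4 whole blood arrays, with 0.49 (adjusted p = 0.166) at its other probe, and PCD1B, a lipid-presenting CD1 protein of the pig, was at least 1.85-fold higher (adjusted p = 0.0129). ROMO1, a regulator of reactive oxygen in mitochondria, fell by 1.21 (adjusted p = 0.0202) and 1.18 (adjusted p = 0.0164), rose by 2.39 (adjusted p = 0.00710) and differed by -0.40 (adjusted p = 0.355) at its 4 probes. The fall of 1.21 lost the call without white blood cell replicate 2 (adjusted p = 0.0547). CNN1, PFKFB1 and the tested probe of TPM1 were not called, and white blood cell replicate 1 was their lowest array. Without it they were higher by 2.07 (adjusted p = 0.00594), 1.93 (adjusted p = 0.00206) and 2.51 (adjusted p = 5.98e-04). The 7 calls were kept without that array.

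Of 22 liver genes 6 were tested, with 2 higher, 2 lower and 2 not called (57.1% of probes called), and a median of -0.60. Their summed signal was 544, 459, 574 and 1435 in whole blood and 357, 386, 313 and 564 in white blood cells, with VTN at 43.1%. ALB, APOB, TTR, FGG, SERPINA1, AMBP, CYP2E1 and CYP3A29 were not well above background on any array. CRP, an acute phase protein, fell by 1.94 (adjusted p = 0.00472) and VTN (vitronectin) by 1.66 (adjusted p = 0.0174), which lost the call without white blood cell replicate 3 (adjusted p = 0.0538), whereas C3, the central complement protein, rose by 1.64 (adjusted p = 8.31e-04) and was measured on 3 of 4 whole blood arrays.

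Of 21 skeletal muscle genes 7 were tested, with 2 higher, 1 lower and 4 not called (37.5% of probes called), and a median of 0.10, and the sum was 1730, 1457, 1513 and 3239 in whole blood and 1750, 1288, 1452 and 2035 in white blood cells, with PYGM at 29%. MYH1, MYH2, MYH4, MYL1, TNNT1, TNNC2 and CKM were not well above background on any array. PYGM, the glycogen phosphorylase of muscle, read 9.47, 9.12, 8.69 and 11.12 against 5.42, 5.33, 5.64 and 7.33 and fell by 3.67 (adjusted p = 0.00120). Smooth muscle and vessel wall had 8 of 20 genes tested, with 1 higher, 1 lower and 6 not called (33.3% of probes called), and a median of 0.00, or 0.20 for the same genes without white blood cell replicate 1 and 0.92 with those that enter the test without it. The sum was 2484, 2043, 2306 and 3821 in whole blood and 2916, 3912, 3285 and 5315 in white blood cells, with FN1 at 38.2%, and COL1A2 was not well above background on any array. DCN (decorin), a matrix proteoglycan, fell by 2.81 (adjusted p = 0.00154) and FN1 (fibronectin) rose by 2.78 (adjusted p = 2.74e-04) at 1 probe, measured on 3 of 4 whole blood arrays, and by 0.95 (adjusted p = 0.0297) and 0.96 (adjusted p = 0.0242) at others. These last calls were lost without whole blood replicate 2 or 3 or white blood cell replicate 1 or 2, and that of 0.95 also without white blood cell replicate 4 (adjusted p between 0.0513 and 0.0884).

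The endothelium list shares VWF with the platelet list and PECAM1 with the list of leukocyte adhesion. It had 7 of 17 genes tested, with 1 higher and 6 not called (18.2% of probes called), and a median of 0.76, or 1.73 without white blood cell replicate 1. Its sum was 4551, 5562, 6710 and 5093 in whole blood and 2023, 15762, 19452 and 26022 in white blood cells, with PECAM1 at 57.8%, and KDR, TEK and SELE were not well above background on any array. Adipose tissue had 5 of 14 genes tested and 0 called by limma, with a median of 0.18, or -0.06 for the same genes without whole blood replicate 4. Its sum was 4758, 3899, 4139 and 2293 in whole blood and 7055, 3627, 5406 and 4413 in white blood cells, with LIPE at 49.5%, and PLIN1, LPL and AQP7 were not well above background on any array. The part of other tissues in the differences was not tested.

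Probes of the same gene did not always move the same way. Of 135 genes with more than 1 called probe, 16 had probes called in opposite directions. CAPNS1, the small subunit of calpain proteases, rose at 2 probes by 2.19 (adjusted p = 0.00862) and 1.82 (adjusted p = 0.0119) and fell at 2 others by 3.77 (adjusted p = 0.00342) and 4.70 (adjusted p = 0.00189), the former -4.37 without white blood cell replicate 4. RPL39, of the large ribosomal subunit, rose by 1.08 (adjusted p = 0.00253) and 0.75 (adjusted p = 0.0264) at 2 probes, and fell by 2.39 (adjusted p = 0.00159) at a probe that read 6.88, 6.42, 8.06 and 8.08 in whole blood and 4.76, 4.70, 4.87 and 5.52 in white blood cells. The rise of 0.75 lost the call without whole blood replicate 1 or 2 (adjusted p = 0.0749 and 0.0693) or white blood cell replicate 2 or 3 (adjusted p = 0.0723 for each). A direction given for a gene holds for the probes stated.

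The largest falls of all were at probes without a gene symbol. Probe A_72_P087826 read 10.94, 11.08, 11.48 and 13.14 in whole blood and 1.83, 1.84, 2.95 and 3.82 in white blood cells, where it was measured on 0 of 4, and was at least 319-fold lower (adjusted p = 7.81e-05). Probe A_72_P226367 read 12.54, 12.31, 13.12 and 14.70 against 4.07, 3.66, 3.81 and 5.80 and fell by 8.83 (adjusted p = 7.81e-05). Among the rises of such probes, A_72_P012641 was at least 14.7-fold higher (adjusted p = 8.47e-05), and probe A_72_P013686, measured on 2 of 4 whole blood arrays, rose by 4.51 (adjusted p = 3.21e-04).

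The difference between the sample types was also measured within the other diets, in 1 fit of the 6 groups of 27 weeks over 20782 probes. White blood cells differed from whole blood on 9166 probes under the control diet (44.1%; 23.6% higher and 20.5% lower), 9635 under HFCD (46.4%; 25.4% and 20.9%) and 11967 under HFCSD (57.6%; 35.9% and 21.7%). The arrays of the diets are different samples, and 6694 probes were called under all 3, of which 6692 in the same direction. They are 73.0% of the calls under control, 69.5% of those under HFCD and 55.9% of those under HFCSD.

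Whether the difference itself changed with diet was tested as a contrast of contrasts, in which both diets share the control arrays. Where nothing differs, an unadjusted threshold of 0.05 passes on average a share of 0.05 of the probes. Against control, 288 probes passed it under HFCD (1.39%), below that share, and 3979 under HFCSD (19.1%). After adjustment in limma 0 passed under HFCD and 284 under HFCSD (1.37%), 84 with a higher (0.404%) and 200 with a lower (0.962%) difference than under control. This count rested on the arrays: without control whole blood replicate 1, 2, 3 or 4 it was 80, 95, 78 or 928, and without control white blood cell replicate 2 or 4 it was 116 or 99. It was 87 with scaling to the 75th percentile and 834 with normexp background correction. With the replicate number as a block it was 0, so 0 of the calls were kept in every setting tried.

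ROMO1 and GRK7, both among the diet genes that the study chose on these samples, were 2 of the 35 probes with a symbol among the 284. ROMO1 at the probe that rose between the sample types read 10.28, 12.46, 10.64 and 10.17 in control whole blood and 15.55, 15.61 and 15.22 in HFCSD whole blood. In white blood cells it read 12.57, 12.97, 14.33 and 13.23 under control and 14.51, 13.16, 13.02 and 14.25 under HFCSD. The whole blood groups did not overlap and the white blood cell groups did. The difference was 2.39 under control, 0.13 under HFCD and -1.73 under HFCSD. Its change under HFCSD was -4.11 (adjusted p = 0.0119), or -4.28 (adjusted p = 0.0843) with the replicate number as a block. The other tested probes of ROMO1 were not among the 284. GRK7, a kinase of visual pigments, read 5.80, 6.0, 5.79 and 6.73 in control whole blood and 10.67, 10.45 and 8.76 in HFCSD whole blood. In white blood cells it read 6.01, 6.23, 5.68 and 6.85 under control and 5.65, 6.64, 6.31 and 5.95 under HFCSD. Its difference was 0.12 under control, -1.42 under HFCD (adjusted p = 0.0228) and -3.82 under HFCSD. The change under HFCSD was -3.94 (adjusted p = 0.0119), or -3.87 (adjusted p = 0.0843) with the replicate number as a block.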

How the data were processed

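The series holds 45 porcine Agilent arrays read in 1 colour, of which the 4 white blood cell and 4 whole blood arrays of the control diet at 27 weeks were compared. The intensities used are the processed signals that the authors deposited for each array, background-subtracted and detrended within the array by Agilent Feature Extraction per the file headers. The deposited series table holds intensities that the authors quantile normalized in GeneSpring GX, and it served as an alternative. Control spots and outlier spots were left out, the spots of a probe were averaged, and log2 signals were quantile normalized over the 45 arrays. A probe entered a test if all usable arrays of a compared group, whichever it was, had it well above background. Differences were fitted with limma 3.58.1 in R 4.3.3 (lmFit, eBayes, two-sided), with Benjamini-Hochberg adjustment at 0.05. Other steps ran in Python 3.11.15, using matplotlib 3.10.9 for figures and scipy 1.17.1, pandas 2.3.3 and numpy 2.4.6 for the rest. The code of the probe filter, the limma fit between groups and the t-test was tested on simulated data.

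Of 43603 probes, 4086 carried a gene symbol (2801 genes), 2058 by their RefSeq transcript, 669 by a protein entry of a mammal, 653 by the gene name in the scanner files, 498 by a symbol in the description and 208 by a description read by eye. The gene names of the scanner files were added after values were first seen. Named genes were the 15 genes that rose most and the 15 that fell most among those past adjustment without overlap of the groups, with 1 probe a gene (that with the largest mean signal); of each list the members with the 3 largest rises and falls; ABCA1 and the study's leading diet genes; at most 2 unnamed probes each way; and genes whose called probes disagreed. Other genes named were chosen after their values were seen. Members and lists were chosen with earlier results of these data known. List results are counts and medians over genes, with no test. In the medians each gene is the mean of its tested probes. In the counts a gene is higher or lower where any tested probe was called that way. It is called in both directions where its called probes disagreed. Where a probe was not well above background on any array of a group, the fold is a lower bound.

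By the methods' criterion, a t-test at the unadjusted threshold with a fold above 2 or below 0.5, 5817 probes were called (30.6%), 2728 higher (14.3%) and 3089 lower (16.2%), and 6419 by the t-test after Benjamini-Hochberg adjustment (33.7%). The alternatives were other scalings, background correction, filters, groups in the fit, and slide or replicate number as a block. Further ones were the deposited table, Spearman correlation and leaving out each compared control array in turn. Promoter motifs were not examined, since no promoter table was available.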

Additional observations from a re-analysis of the deposited data

Results flagged for a closer look

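In each group of 4 arrays, an array was taken as far from the others where its gap to the nearest array, divided by the range of the group, passed the critical value of Dixon's test. Of 356 groups over the probes of named genes 46 held such an array, against 2934 of 38040 groups over all probes tested (7.71%), and 13 of the 46 were low on white blood cell replicate 1. The named genes were in part chosen by their values in these data.

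White blood cell replicate 1 lay far below its group for HBE1 (8.11 and 7.22 at its probes), BPGM (4.06), PPBP (6.99), PF4 (10.30), ITGA2B (8.62), ITGB3 (8.0), SELP (7.62), VWF (6.88), CLU (7.45), ARG1 (7.97 and 1.54) and CD8A (4.58), and far above it for NCF1 (11.25) and KLF4 (6.93). ACR was also marked on that array (3.03), but it was measured on 0 white blood cell arrays, so this gap lies between values near background.

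Whole blood replicate 4 lay far above its group for CAT (12.73), THBS1 (11.68), SLC2A11 (9.83), CCR4 (10.67), CAV3 (11.68), COL4A2 (9.23), ARG1 (15.14 and 9.60), CRP (8.5) and VTN (9.71). It lay far below its group for NCF1 (6.51), TREM1 (7.67), FCGR3A (13.78), CD14 (8.59 and 1.47), IRF9 (4.66) and LAMP1 (5.80).

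White blood cell replicate 4 lay far above its group for THBS1 (6.86), PTGDS (6.75), CAV3 (5.44), MADCAM1 (9.19), ITIH2 (5.65), CD1D (6.21) and PYGM (7.33) and far below it for CD3G (11.11). White blood cell replicate 3 lay far above for CD3D (7.11) and CD3G (7.27), and whole blood replicate 2 far above for ABCA1 (10.41). Whole blood replicate 1 lay far above for GUSB (10.42) and far below for PSMD4 (10.38). Why these arrays lay apart was not tested.

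The difference between the sample types was itself different under HFCSD than under control, by limma's contrast of contrasts, for ROMO1 (-4.11, adjusted p = 0.0119), GRK7 (-3.94, adjusted p = 0.0119), PSMD4 (-1.77, adjusted p = 0.0274), SDHA (-1.83, adjusted p = 0.0492) and CRP (-3.02, adjusted p = 0.0463). ROMO1, PSMD4 and SDHA each passed at 1 probe only, and their other tested probes did not pass. PSMD4 lost the call without whole blood replicate 1 (adjusted p = 0.0520) or white blood cell replicate 4 (adjusted p = 0.0578). SDHA lost it without whole blood replicate 1, 2 or 3 (adjusted p = 0.101, 0.0739 and 0.0967) or white blood cell replicate 1, 2, 3 or 4 (adjusted p = 0.0549, 0.0834, 0.0662 and 0.0914). CRP lost it without whole blood replicate 1, 2 or 3 (adjusted p = 0.0978, 0.0872 and 0.0940) or white blood cell replicate 1, 2 or 4 (adjusted p = 0.0532, 0.0792 and 0.0981), and lay at the threshold without white blood cell replicate 3 (adjusted p = 0.050). With 75th percentile scaling PSMD4, SDHA and CRP lost the call (adjusted p = 0.0562, 0.0603 and 0.0691), as SDHA and CRP did without a filter (adjusted p = 0.0724 and 0.0743) and with the weaker flag (adjusted p = 0.0577 and 0.0508). With the replicate number as a block all 5 genes lost the call. The adjusted p was then 0.0843 for ROMO1, GRK7 and PSMD4, 0.109 for CRP and 0.154 for SDHA. None of the 5 genes, ROMO1 and GRK7 included, thus kept the call in every setting tried.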

How the results depend on the processing

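The count of 7557 probes ran from 5070, with only probes well above background on all 8 arrays, to 8699, with slide as a random block, and from 5707 to 8574 when each array was left out in turn. With the replicate number as a replicate block it was 8419. The titles do not say whether equal numbers mark the same animal. By deviations from the group mean, 3 of 4 whole blood arrays correlated best with the white blood cell array of their own number. Whole blood replicate 2 did not (0.0568, against 0.137 with white blood cell replicate 3). Scaling to the 75th percentile moved the median of all probes from 0.17 to 0.31, a shift of 0.14, and no filter moved it to 0.03, a shift of -0.14.

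By the methods' criterion the count of 5817 (2728 higher, 3089 lower) was 2149 after normexp background correction (739 higher, 1410 lower). It was 6417 with 75th percentile scaling (3398 higher, 3019 lower) and from 5039 to 6610 without each array. The cause was not tested. The correlation within less that between sample types stayed between 0.0388 and 0.0926 under the other settings and between 0.0657 and 0.0861 without each array, each time at the smallest p possible. The difference in the share of spots well above background ran from -1.08 to 2.67 without each array.

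The count of probes whose difference changed under HFCD was 0 in each alternative by limma, beside 288 at the unadjusted threshold in the main setting. Under HFCSD the count was 284 (84 above, 200 below) in the main setting. It was 87 with 75th percentile scaling (14 above, 73 below) and 834 with normexp (158 above, 676 below). It was 190 without a filter (55 above, 135 below) and 0 with the replicate block. Under that block ROMO1, GRK7 and PSMD4 had an adjusted p of 0.0843, SDHA of 0.154 and CRP of 0.109. The count ran from 78 to 928 without each control array, and the arrays of the other diets were not left out. The cause was not tested. Quantile normalization over the 8 arrays could not be applied to this result, so the arrays of 27 weeks were used, an alternative chosen after seeing the data (276 probes).

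Of 178 probes of named genes, 121 were called, and 99 of these passed in the same direction in every alternative run for them, and 0 reversed. Of the 57 not called, 20 reversed and 28 passed under an alternative. Of 496 list medians under alternatives 445 stayed within the spread between replicates, 35 moved further and 16 changed sign. The moved or reversed values fell in 23 of 31 lists, and 16 of them came without white blood cell replicate 1 or with both arrays that stood apart left out. The number of list medians above 0 was 27, from 26 to 30 without each array and 23 with only probes well above background on all 8 arrays.

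With both arrays that stood apart left out, which was chosen after seeing the data, the medians were 0.37 for haemoglobin and haem synthesis, 0.31 for erythroid regulators, -0.08 for neutrophils, -0.07 for interferon-induced genes and 0.99 for smooth muscle. In the same setting the differences were 0.57 and 0.16 for HBE1, 0.13 for PF4, 1.18 for ITGB3, 0.81 for SELP, -0.01 for CD14, -0.07 for PTPRC, -0.09 for SDHA, 0.06 for ACTB, -0.12 for TLR4 and -0.22 for SLA-1, each at 1 probe but HBE1. Without a filter the medians were 0.16 for haemoglobin and haem synthesis and 0.22 for erythroid regulators, and the latter was 0.22 with the weaker flag (signal positive and significant). With only probes well above background on all 8 arrays they were -2.41 for the red cell membrane, -0.29 for NK and cytotoxic cells and -0.05 for the cell cycle, from fewer genes. With 75th percentile scaling CD3D differed by 0.18, ACTB by -0.38 and -0.30, and SLA-1 by -0.72 and -0.67. With normexp SDHA differed by -0.04 and ACTB by 0.10. Apart from the fewer genes, the cause was not tested.

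The filter is applied anew when arrays are left out, so the genes tested in a list can change with them. Without each array in turn the ranges were -1.94 to 0.06 for haemoglobin and haem synthesis, -1.12 to 0.31 for erythroid regulators, -0.07 to 0.48 for the cell cycle and -0.43 to 0.92 for smooth muscle. At single probes they were -1.77 to 0.30 for HBE1, -0.15 to 1.62 for PPBP, -1.18 to 0.09 for PF4, -0.85 to 1.21 for ITGB3, -1.01 to 0.84 for SELP, -0.26 to 1.66 for CD8A, -0.10 to 0.33 for GRK7, -0.45 to 0.17 for CD163, -0.04 to 0.28 for PSMD4, -0.12 to 0.11 for SDHA, -0.22 to 0.09 for ACTB, -0.08 to 0.35 for TLR4 and -0.14 to 0.37 for SLA-1. Folds are given as bounds where 0 arrays of a group were measured. Where only part of a group was measured, background limits what can be said of the fold.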
